A study of Mus musculus with 2 samples.

Results

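Reg lectins and other luminal antibacterial proteins are secreted or surface proteins with which the intestinal epithelium and its resident phagocytes act on bacteria in the lumen. The genes examined were the lectins Reg1, Reg3a, Reg3b, Reg3g and Reg4, the flagella-binding protein Lypd8, the secreted phospholipase Pla2g2a and the lysozymes Lyz1 and Lyz2, 9 in all. They were listed by symbol, and a probe was assigned to a gene when its RefSeq accession matched that gene. Of the 9 genes, 8 had a probe (1 each), among 22909 genes with a probe on the arrays, and 4 gave a signal well above background on at least 1 array, among 14668 such genes. No probe was matched to Pla2g2a, which the RefSeq annotation of C57BL/6J lists as a transcribed pseudogene, and it is named only.

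RNA of whole colon came from 8-week-old C57BL/6 mice of 2 genotypes, Villin-Cre and Villin-Cre; EP4flox/flox (EP4 cKO). Both carry the Villin-Cre transgene, which makes Cre recombinase in the epithelium of the intestine. In EP4 cKO mice the recombinase deletes loxP-flanked DNA of Ptger4, which encodes the prostaglandin E2 receptor EP4, so that stromal and immune cells of the colon keep the gene. There was 1 Cy3-labelled Agilent array per genotype, and the labels give 3 pools of colon as the source of the RNA of each genotype. Since each genotype has a single array, differences were not tested, and the spread between mice is unknown. The ± values are the error that the scanner software gives the spot of a probe, and cover that spot only.

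Reg proteins are small C-type lectins. Reg3b and Reg3g are released by enterocytes and Paneth cells when interleukin-22 and STAT3 signal in the epithelium, and they bind and kill bacteria close to the mucosal surface. Reg4 marks deep crypt secretory cells of the colon, Lypd8 is anchored to the surface of colonic enterocytes and keeps flagellated bacteria away from it, Lyz1 is the lysozyme of Paneth cells, and Lyz2 is that of macrophages and neutrophils.

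Reg3b, Reg3a, Reg1 and Reg3g lie in 1 cluster on chromosome 6 together with Reg2 and Reg3d, whereas Reg4 lies on chromosome 3, and Lyz1 and Lyz2 are neighbours on chromosome 10. The 250 bases before the transcript start that RefSeq's promoter table gives are shown for Reg3g and Reg4, the members with the largest ratios. They are also shown for Reg3b, which gave no signal and lies at the other end of the cluster from Reg3g, its paralog. The sequences are from RefSeq (GRCm38.p6) and read 5′ to 3′ towards the gene, at chr6:78468875-78469124 on the minus strand for Reg3g, chr6:78370635-78370884 on the plus strand for Reg3b and chr3:98221906-98222155 on the plus strand for Reg4. The last 18 bases of the Reg4 window lie within the annotated extent of the gene, which begins upstream of that start. Capitals mark the letters TATAAA, a core promoter element near which transcription starts, or TTCNNNGAA, the inverted repeat bound by STAT factors, on either strand.
Reg3g: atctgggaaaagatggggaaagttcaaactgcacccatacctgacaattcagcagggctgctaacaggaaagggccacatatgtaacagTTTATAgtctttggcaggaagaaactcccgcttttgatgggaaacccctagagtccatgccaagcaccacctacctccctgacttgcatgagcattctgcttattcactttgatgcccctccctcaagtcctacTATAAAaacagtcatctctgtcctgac
Reg3b: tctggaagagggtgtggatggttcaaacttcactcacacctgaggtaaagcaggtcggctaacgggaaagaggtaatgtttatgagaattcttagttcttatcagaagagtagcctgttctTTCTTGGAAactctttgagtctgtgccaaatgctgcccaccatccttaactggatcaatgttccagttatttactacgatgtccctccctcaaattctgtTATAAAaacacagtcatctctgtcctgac
Reg4: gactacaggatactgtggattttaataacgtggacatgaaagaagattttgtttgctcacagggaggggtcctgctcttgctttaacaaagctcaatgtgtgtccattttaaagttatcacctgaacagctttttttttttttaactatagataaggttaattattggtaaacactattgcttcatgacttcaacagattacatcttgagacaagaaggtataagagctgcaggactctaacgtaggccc

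The Reg3g and Reg3b windows had 68.4% identical positions in a global alignment (173 of 253 columns), against 45.7% for Reg3g and Reg4. TATAAA began 27 bases before the start of Reg3g and 29 bases before that of Reg3b, and a second match in Reg3g lay on the opposite strand, 161 bases before the start. TTCNNNGAA was found once in Reg3b, 129 bases before the start, and not in the windows of Reg3g or Reg4. Of 32851 windows of the same length, 12.4% held TATAAA and 7.02% held TTCNNNGAA. The core of the interferon-stimulated response element, held by 2.98% of all windows, was in none of the 3 windows shown. A match is a description of the letters and not of a bound site.

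The windows of the lysozyme genes are shown because Lyz1 was well above background on both arrays and Lyz2 was not marked so on either. They lie on the minus strand, at chr10:117292869-117293118 for Lyz1 and chr10:117282273-117282522 for Lyz2 (GRCm38.p6). The windows had 79.4% identical positions (200 of 252 columns), and none of the 3 motifs occurred in either, so no letter is in capitals.
Lyz1: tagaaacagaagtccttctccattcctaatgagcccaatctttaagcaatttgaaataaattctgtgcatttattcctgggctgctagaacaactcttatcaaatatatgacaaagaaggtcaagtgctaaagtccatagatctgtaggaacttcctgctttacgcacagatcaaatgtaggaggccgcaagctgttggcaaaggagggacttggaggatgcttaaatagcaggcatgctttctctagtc
Lyz2: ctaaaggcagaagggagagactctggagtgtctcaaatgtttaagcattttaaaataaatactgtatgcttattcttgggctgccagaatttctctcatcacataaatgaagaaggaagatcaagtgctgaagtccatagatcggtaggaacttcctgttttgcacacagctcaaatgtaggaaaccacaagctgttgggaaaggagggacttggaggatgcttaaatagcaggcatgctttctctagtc

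The intensities were scaled to a trimmed mean of 2500 on each array, as in the methods of the study, and a ratio is that of EP4 cKO over Villin-Cre. Of 56593 probes, 45.4% were well above background on the Villin-Cre-labelled array and 51.6% on the EP4 cKO-labelled array, and no spot was saturated. The floor, the lowest signal among the probes well above background, was 125 and 57.8. Ptger4, the targeted gene, was not lower beyond 2-fold on the EP4 cKO-labelled array (6227 ± 624 and 5661 ± 566, a log2 ratio of -0.14, and 0.59 for a second, dimmer probe). Where these probes lie relative to the deleted part of the gene was not tested, so the value may not check the labels. Directions are therefore those of the array labels. Hoxb13, an epithelial marker of the large bowel, was measured on both arrays (274488 and 248933). Of 13 markers of small intestinal enterocytes 8 had a value, with a median log2 ratio of 0.51. Among them, Fabp6 and Slc10a2 were more than 2-fold higher on the EP4 cKO-labelled array and Mttp more than 2-fold lower. The other 5 (Sis, Lct, Apoa4, Apoa1 and Gata4) were well above background on neither array. Whether both arrays hold the same stretch of bowel was not tested.

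Reg4 and Reg3g gave higher signals on the EP4 cKO-labelled array, Lypd8 and Lyz1 were within 2-fold, and Reg1, Reg3a, Reg3b and Lyz2 were not marked as well above background on either array. Thus 2 of the 4 genes with a value passed 2-fold upwards and none downwards. Across all genes with a value, 4.89% (717) passed 2-fold upwards and 7.98% (1171) downwards, and the genes had a median log2 ratio of -0.10. Of these calls, 38.0% were on the higher side, a share that was 50.6% with scaling to the 75th percentile, 50.1% after loess on mean signal, 48.6% with the trimmed mean over all spots, 61.1% after normexp with quantile normalization and 94.5% with scaling to the E1A control spots. Reg3g entered the count through a bound, since it was dim on the Villin-Cre-labelled array.

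**Figure D1:**
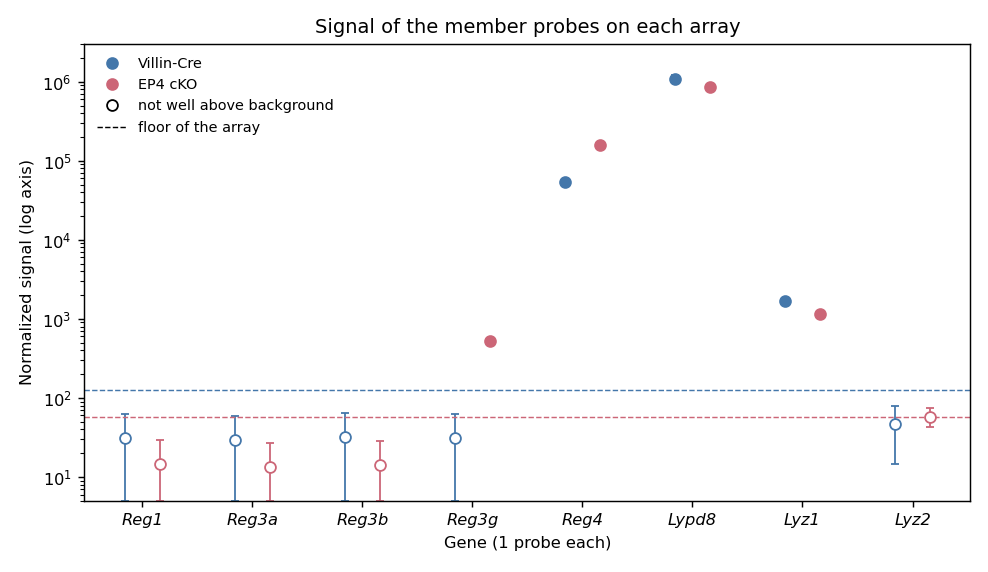
Normalized signal (log axis) of the single probe of each of the 8 genes on the Villin-Cre array (blue) and the EP4 cKO array (red), 1 array per genotype. Bars are the scanner software's error of the spot, open circles are signals not well above background, and dashed lines are the floors of the arrays (125 and 57.8); Reg4 and Reg3g were higher on the EP4 cKO array, and 4 genes have open circles on both arrays. Levels of different probes cannot be set against each other.

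Reg4, the lectin of deep crypt secretory cells, gave 54128 ± 5413 on the Villin-Cre-labelled array and 158383 ± 15838 on the EP4 cKO-labelled array. The ratio was 2.93-fold, a log2 ratio of 1.55 with a scanner error of 0.20. It stood 1.65 above the median of all genes, and 338 genes (2.30%) had a larger log2 ratio or bound. Under the other ways of scaling, the log2 ratio of Reg4 ran from 1.61 (normexp with quantile normalization) to 2.59 (E1A control spots), so that Reg4 was more than 2-fold higher under each of them. Reg4 was not past 3-fold as reported, but was under each of the other scalings.

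Reg3g, which acts on Gram-positive bacteria, had a signal of 31.2 ± 31.3 on the Villin-Cre-labelled array, not well above background, and 520 ± 53.9 on the EP4 cKO-labelled array. Against the Villin-Cre floor of 125, Reg3g was at least 4.15-fold higher (log2 ratio of at least 2.05). The bound was lowest after normexp with quantile normalization, at a log2 ratio of 1.38, and highest among the scalings with the E1A control spots, at 3.09.

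Reg3b, Reg3a and Reg1 were not detected on either array. Reg3b, the paralog of Reg3g that acts mainly on Gram-negative bacteria, had 31.8 ± 31.9 on the Villin-Cre-labelled array and 14.3 ± 14.4 on the EP4 cKO-labelled array. Reg3a had 29.1 ± 29.2 and 13.3 ± 13.3, and Reg1, a regenerating protein first known from the pancreas, had 31.3 ± 31.4 and 14.5 ± 14.5. Each of these signals was no larger than its own error and was between 23.0% and 25.4% of the floor of its array, so no fold is given for Reg1, Reg3a or Reg3b. Reg2 was also dim on both arrays. The neighbouring Reg3d had 1 probe with 449 and 342 (log2 ratio -0.39, and 0.64 with the E1A control spots) and a second that was dim on both arrays. At this signal a difference of Reg1, Reg3a or Reg3b between genotypes was not detectable.

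Lypd8 gave strong signals on both arrays, 1092899 ± 109290 on the Villin-Cre-labelled array and 857310 ± 85731 on the EP4 cKO-labelled array. The log2 ratio was -0.35 with a scanner error of 0.20, or -0.25 relative to the median of all genes. The sign was kept with the 75th percentile (-0.19), loess (-0.18), the trimmed mean over all spots (-0.22) and normexp with quantile normalization (-0.04), and flipped with the E1A control spots (0.69), which raised the median of all genes by 0.97.

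Lyz1 had 1668 ± 169 on the Villin-Cre-labelled array and 1150 ± 116 on the EP4 cKO-labelled array, a log2 ratio of -0.54 with a scanner error of 0.21. Relative to the median of all genes it was -0.43, and Lyz1 was within 2-fold under every scaling, with a flipped sign under the E1A control spots (0.50). Lyz2 had 46.9 ± 32.4 and 58.1 ± 15.5, and neither signal was marked as well above background, although the second lay beside the floor of its array. Lyz1 and Lyz2 are close paralogs, and RNA of one may also bind the probe of the other, which was not tested. In RNA of whole tissue, fewer cells of a type and less RNA per cell cannot be told apart.

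**Figure D2:**
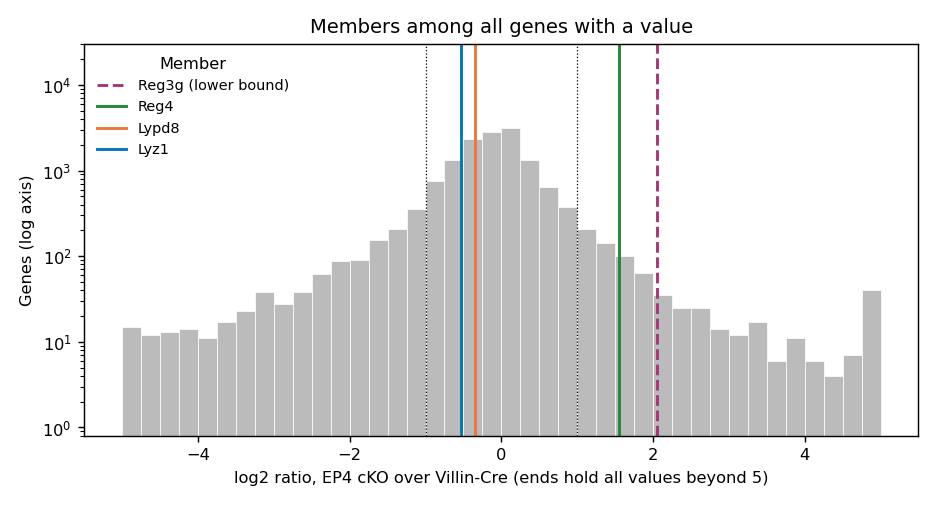
Number of genes (log axis) by log2 ratio of EP4 cKO over Villin-Cre for the 14668 genes with a value, with bounds that did not exceed 1 placed at 0. Coloured lines mark Reg3g (dashed, a lower bound of 2.05), Reg4 (1.55), Lypd8 (-0.35) and Lyz1 (-0.54), and dotted lines mark 2-fold. Reg3g and Reg4 lie to the right of the dotted line, in the upper tail, and Lypd8 and Lyz1 within the main body.

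The route by which Reg3 genes are induced runs from interleukin-22, interleukin-6 and MyD88-dependent signals to STAT3 in the epithelial cell. Of 22 genes of this route, 17 had a value, of which 2 passed 2-fold upwards and 1 downwards, and the median log2 ratio was -0.15 (-0.10 over all genes). Il6, Il17a and Il23a were well above background on neither array. Il6ra, Il6st and Myd88 had log2 ratios of -0.81, -0.37 and -0.15 (0.23, 0.67 and 0.89 with the E1A control spots). Il22 itself was not well above background by either probe (73.4 ± 29.9 and 57.4 ± 14.4 for the brighter). Its receptor chain Il22ra1 had 5035 ± 505 and 6405 ± 641, a log2 ratio of 0.35, and the brighter probe of Stat3 had 14932 ± 1493 and 16535 ± 1654, a log2 ratio of 0.15, whereas its dimmer probe had -0.38. Socs3, a target and inhibitor of STAT3, was 3.23-fold higher (1214 ± 124 and 3925 ± 393, log2 ratio 1.69, and 1.62 to 1.85 with the percentile, loess, all-spot and normexp scalings). Il1b was at least 3.44-fold higher by its brighter probe (log2 bound 1.78, and 1.13 after normexp with quantile normalization) and at least 2.46-fold by the other, and Il18, an epithelial cytokine, was 2.82-fold lower (72176 and 25559, log2 ratio -1.50, and -0.46 with the E1A control spots).

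Among other secreted defence proteins of the mucosa, Retnlb and Ang4 had the largest ratios. Of 24 listed genes, 18 had a value and 7 passed 2-fold, all of them upwards, with a list median of 0.27 (log2). Of these values, 5 were bounds from probes dim on the Villin-Cre-labelled array, which cannot fall below 0. Over the 13 genes measured on both arrays the median was 0.12. Retnlb, a goblet cell protein that acts on Gram-negative bacteria, went from 95.9 ± 31.6, not well above background, to 275441 ± 27544, at least 2197-fold higher (log2 bound 11.10, and 9.98 after normexp with quantile normalization). Ang4, a ribonuclease of Paneth and goblet cells, had 1266 ± 130 and 197441 ± 19744 (156-fold higher), and Itln1, a lectin that binds bacterial sugars, had 1238 ± 128 and 17181 ± 1718 (13.9-fold higher). Slpi, a protease inhibitor, was 8.83-fold higher by its brighter probe, with a log2 ratio of 0.14 by the dimmer. The iron-binding Ltf was at least 7.51-fold higher (log2 bound 2.91, and 2.03 after normexp with quantile normalization), and Lcn2, which captures siderophores, at least 2.84-fold. Zg16, Pigr, Wfdc2 and the phospholipase Pla2g10 were within 2-fold, and Pglyrp1 (log2 ratio 0.97, and up to 1.13 under the percentile, loess, all-spot and normexp scalings) and Rnase4 (-0.96, and 0.07 with the E1A control spots) lay close to that threshold. Of the secreted phospholipases related to Pla2g2a, Pla2g5, which lies near it on chromosome 4, was 2.54-fold higher (4451 and 11302, log2 ratio 1.34, and at least 0.81 by a dimmer probe) and Pla2g2f had a log2 ratio of -0.22 (0.82 with the E1A control spots).

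Markers of the cells that make the proteins were looked up beside them. A summed signal adds the probes of a list and is set mostly by its brightest probes, so it is compared only between the arrays. For Reg4, all 15 markers of goblet and deep crypt secretory cells were measured on both arrays, with a median log2 ratio of 0.09, and their summed signal was 2080630 on the Villin-Cre-labelled array and 2526907 on the EP4 cKO-labelled array. Without Clca1 the sum was 1785104 and 1793471. As reported, Clca1 was more than 2-fold higher (2.48-fold) and the other 14 were within 2-fold, from -0.94 for Klk1 (0.10 with the E1A control spots) to 0.79 for Tpsg1 on the log2 scale. Spink4, at 0.74, was past 2-fold after normexp with quantile normalization (1.01) and with the E1A control spots (1.77). Muc2, the secreted mucin, had a log2 ratio of -0.06 (0.04 to 0.16 under the percentile, loess, all-spot and normexp scalings). The log2 ratio of Reg4 as reported lay above those of the 15 markers, the highest of which was 1.31. It lay below those of Retnlb (a bound of 11.10) and Ang4 (7.28), both also goblet cell proteins, which are not among the 15. Kit, one of the 15, was lower on the EP4 cKO-labelled array (2615 and 1604, log2 ratio -0.71, and 0.33 with the E1A control spots). The part of goblet and deep crypt secretory cells in the signal of Reg4 was not tested.

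For Reg3g and Lyz1, 10 of 16 Paneth cell markers had a probe and 8 a value, of which 3 passed 2-fold upwards and none downwards. The alpha-defensins Defa24, Defa23 and Defa3 were well above background on the EP4 cKO-labelled array only, at 1148 ± 116, 1141 ± 115 and 727 ± 74.0, and were at least 9.16-fold, 9.10-fold and 5.80-fold higher. After normexp with quantile normalization their log2 bounds were 2.17, 2.23 and 1.76, against 3.20, 3.19 and 2.54 as reported. The sequences of these genes are nearly identical, so the 3 probes may not tell the genes apart. A second probe of Defa23 gave a log2 ratio of at least 0.63. Defa21 and Defa26 were dim on both arrays, and Mmp7, which processes defensins, had a bound that did not exceed 1. The 4 markers measured on both arrays were within 2-fold. Their log2 ratios were 0.58 for Mptx1, 0.36 for Mptx2, 0.42 for Clps and -0.51 for Nupr1 (0.53 with the E1A control spots). On the Villin-Cre-labelled array these markers gave 287072, 471361, 12055 and 31855, whereas each alpha-defensin with a probe was dim there. Whether these 4 markers report Paneth cells in this tissue was not tested. The median over the list was 0.50, and 0.39 over the 4 measured on both arrays. The summed signal was 802526 and 1075737, and 44093 and 41651 without Mptx1 and Mptx2. That remainder was mostly Nupr1 (31855 and 22402) and Clps (12055 and 16099), so it does not follow the alpha-defensins. The part of Paneth cells in the signals of Reg3g and Lyz1 was not tested.

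For Lyz2, 14 of 18 markers of macrophages, monocytes and neutrophils had a value and 6 passed 2-fold, all of them upwards. The list median was 0.91 (log2). Of these values, 5 were bounds from probes dim on the Villin-Cre-labelled array, which cannot fall below 0. Over the 9 markers measured on both arrays the median was 0.63, and of these Ly6c2 and S100a9 passed 2-fold. The summed signal of the list was 143065 and 473968, and 77449 and 101662 without Ly6c2. Ly6c2, which has a close paralog, was 5.67-fold higher, S100a9 was 2.39-fold higher, and Mrc1, S100a8, Mpeg1 and Cx3cr1 were at least 4.31-fold, 2.83-fold, 2.58-fold and 2.04-fold higher. After normexp with quantile normalization the log2 bound of Mrc1 was 1.42, against 2.11 as reported, and Mpeg1 (0.90) and Cx3cr1 (0.59) were within 2-fold. Among the markers within 2-fold, Csf1r had a log2 ratio of -0.79 (0.25 with the E1A control spots), Lst1 of -0.30 (0.73) and Cd68 of -0.09 (0.04 to 0.17 under the percentile, loess, all-spot and normexp scalings). The other 5 had positive ratios, Tyrobp of 0.95 and Cd14 of 0.88 (up to 1.18 and 1.03 under those scalings), Fcer1g of 0.63, Aif1 of 0.48 as a bound and Itgam of 0.48. The macrophage markers Adgre1, Cd163, Fcgr1 and Cybb were, like Lyz2, well above background on neither array.

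Reg proteins are also made in the pancreas, which adjoins the bowel. Of 17 markers of pancreatic acinar cells, 9 were well above background on neither array, among them Cpa1, Cpb1, Pnlip, Prss2, Amy2b and Cela3b. Of the 8 with a value, none was more than 2-fold higher, and Cela1, which the colon also expresses, had a log2 ratio of -1.02 (-0.81 after normexp with quantile normalization, and 0.01 with the E1A control spots). The summed signal was 643399 and 438003, nearly all of it from Cela1 and Zg16, which is also a goblet cell marker. Without them it was 13879 and 17790, most of it from Clps (12055 and 16099), which is also in the Paneth cell list.

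**Figure D3:**
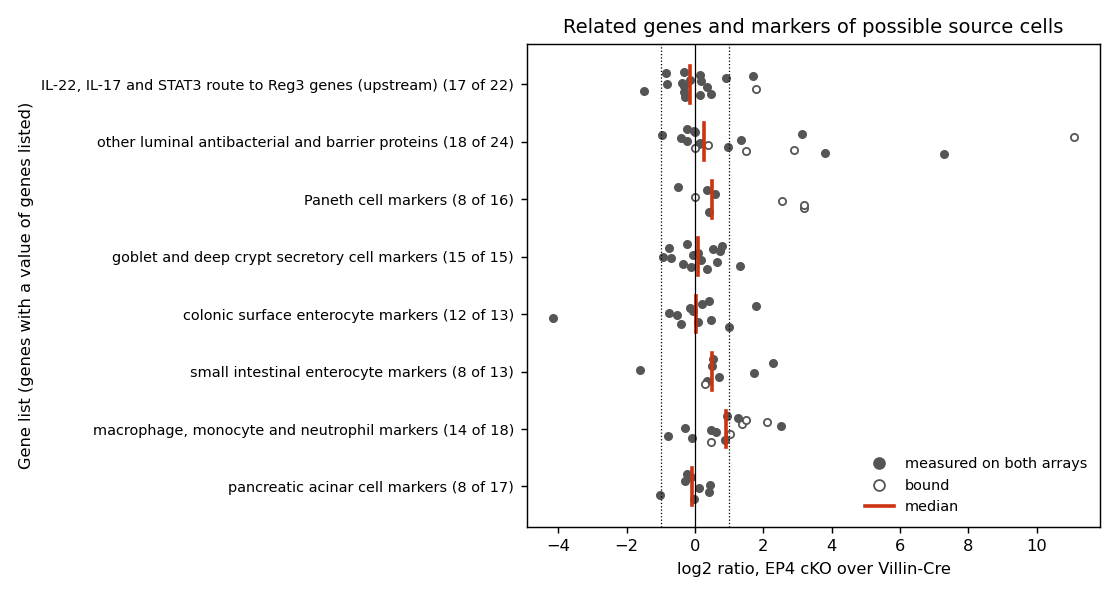
Log2 ratio of EP4 cKO over Villin-Cre (horizontal axis) for each gene with a value in the 8 lists of related genes and cell markers, with the number of genes with a value in brackets. Filled circles were measured on both arrays, open circles are bounds, red lines are medians and dotted lines mark 2-fold. The largest ratios are those of Retnlb (a bound of 11.10) and Ang4 (7.28) among the other antibacterial proteins, and Cyp2c55 (-4.15) is the lowest.

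The 4 genes with a ratio were computed again under each other processing. Reg4 lay between 1.55 and 2.59 and Reg3g, where it had a value, between 1.38 and 4.06 on the log2 scale. Lypd8 lay between -0.35 and 0.69 and Lyz1 between -0.54 and 0.50.

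**Figure D4:**
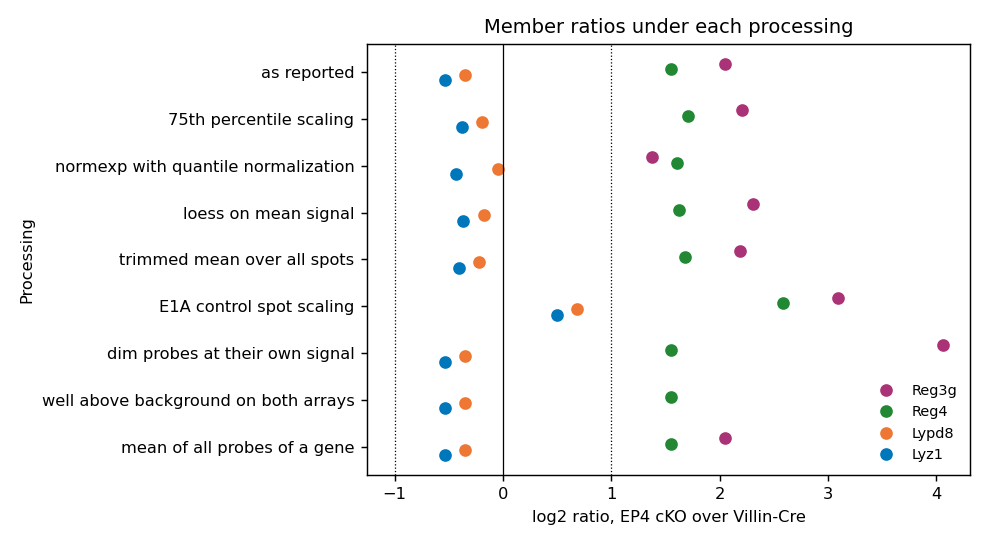
Log2 ratio of EP4 cKO over Villin-Cre (horizontal axis) of Reg3g, Reg4, Lypd8 and Lyz1 as reported and under 8 other ways of processing (vertical axis), with dotted lines at 2-fold. Reg4 stays to the right of the upper dotted line in each row, Reg3g does so where it has a value, and Lypd8 and Lyz1 stay between the dotted lines, crossing 0 only with the E1A control spots.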

How the data were processed

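Colon RNA of each genotype was read on 1 Cy3 Agilent array. The authors deposited scanner output of Feature Extraction (12.0.3.1 per the file headers, 11.5.1.1 per the labels), whose intensity values are background-subtracted and detrended within each array and not scaled between arrays. Samples were grouped by genotype in the labels.

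From these, control spots were dropped, as were outlier spots (147 for Villin-Cre, 126 for EP4 cKO), spots of a probe were averaged, and each array was scaled to a mean of 2500 after trimming 2% of the probes at each end (factors 3.45 and 2.68). For probes dim on a single array, that side was raised to the floor unless its own signal was higher, so that the fold is a bound, and a bound that did not exceed 1 counted as a log2 ratio of 0. The probe with the highest mean signal stood for a gene. Of 56593 probes, 58.3% were named through RefSeq accessions (GRCm38.p6). The arrays were designed on another assembly, and no coordinates of probes are given. Among 277 probes with repeated spots, log2 ratios had a median SD between spots of 0.035. The number of arrays limits the precision.

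The genes and the 8 lists of 133 related genes were chosen with earlier results of these data known. All listed members were named, with the genes of each list past 2-fold (up to 6, by size), Il22, Il22ra1, Stat3 and Socs3. Any other gene, such as Pla2g5, Muc2 or the genes dim on both arrays, was chosen after its values were seen, as were the genes left out of summed signals. The steps were first checked on simulated arrays. Alternatives were other scalings (75th percentile, all spots, E1A control spots), normexp (offset 50, on the median spot signal) with quantile normalization, loess (span 0.3), other treatments of dim probes and of several probes, and thresholds of 1.5-fold and 3-fold. Python 3.11.15, numpy 2.4.6, pandas 2.3.3, statsmodels 0.14.6, biopython 1.88, R 4.3.3 and limma 3.58.1 were used.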

Additional observations from a re-analysis of the deposited data

How the results depend on the processing

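Of the 2 genes more than 2-fold higher, both remained so under each other scaling, and 1 (Reg4) was left when detection on both arrays was required, since Reg3g then has no value. At a threshold of 3-fold 1 (Reg3g) was left with the scaling as reported, whereas Reg4 was past 3-fold under each other scaling and Reg3g was not after normexp with quantile normalization. No gene was more than 2-fold lower except when dim probes kept their own signal, where 3 were (Reg1 at -1.11, Reg3a at -1.13 and Reg3b at -1.16). Probes dim on both arrays had a median log2 ratio of -1.13 in that setting, and of all calls over the arrays 13.9% were then on the higher side. Over the 8 lists, 23 of 96 genes passed 2-fold upwards and 4 downwards. The count of higher genes was 62 with the E1A control spots, 12 of 81 with detection on both arrays and 15 at 3-fold. Over all genes, 5754 of 14676 were higher with the E1A control spots and 519 of 12808 with detection on both arrays. The count of lower genes was 2 after normexp with quantile normalization, 1 with the E1A control spots and 23 of 125 with dim probes kept. At thresholds of 1.5-fold and 3-fold it was 12 and 2. With dim probes kept, 7253 of 22909 genes over the arrays were lower. Relative to the values as reported, the median of all genes rose by 0.10 with the 75th percentile, normexp and all-spot settings each, by 0.12 after loess and by 0.97 with the E1A control spots. No log2 ratio past 2-fold among the 4 genes with a value changed sign. No paired analysis was possible because each genotype has 1 array, which also leaves no replicate to omit. Signal over background limits Reg1, Reg3a, Reg3b and Lyz2, which give no fold, and Reg3g, which gives a bound.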

Other observations

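Among genes of colonic surface enterocytes, 12 of 13 were measured on both arrays, with a median log2 ratio of 0.02. Krt20, a keratin of mature surface cells, was 3.48-fold higher on the EP4 cKO-labelled array (146575 ± 14658 and 510711 ± 51071), and Aqp8, a water channel, was just past 2-fold higher (236302 and 473610). Cyp2c55, a cytochrome P450 of the colon, was 17.8-fold lower (42911 ± 4291 and 2412 ± 242), and its second probe also had a log2 ratio below -1 (-3.74). Car1, Car4 and Slc26a3, which serve ion and bicarbonate transport, were within 2-fold.

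Of 13 genes of small intestinal enterocytes, 8 had a value, with a median log2 ratio of 0.51 and a summed signal of 19921 and 44882. The ileal bile acid genes Slc10a2, the apical transporter, and Fabp6, the cytosolic carrier, were 4.83-fold and 3.32-fold higher on the EP4 cKO-labelled array (269 and 1298 for Slc10a2, 7779 and 25853 for Fabp6). Mttp, which loads lipid onto lipoproteins, was 3.04-fold lower (652 and 215), and had a log2 ratio of -0.93 after normexp with quantile normalization and of -0.57 with the E1A control spots.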
